A study of Mus musculus with 28 samples.

Results

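The 10 genes described here are secretory and xenobiotic-metabolizing genes of the club cell, the secretory cell of the mouse conducting airways. They were taken by symbol: the secretoglobins Scgb1a1, Scgb3a1 and Scgb3a2, the cytochrome P450 genes Cyp2f2, Cyp4b1, Cyp2b10 and Cyp2s1, the carbonyl reductase Cbr2, the aldehyde dehydrogenase Aldh1a1 and the flavin-containing monooxygenase Fmo2. All 10 were found among the 35880 gene identifiers of the count table, and all 10 were among the 14887 genes kept for testing by a filter on low counts. No measured value was used to choose them, but they were proposed with earlier results of these data known.

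RNA was sequenced from whole-lung homogenates of wild type male C57BL/6 mice (an inbred strain), 8 to 12 weeks old. Mice breathed clean air as a sham (Air), carbon black particles at 10 mg/m3 (CB), ozone at 2 ppm (O3), or both together at those doses (CB-O3), for 3 hours at a time. Lungs of day 1 followed 1 exposure (4 libraries per group) and lungs of day 4 followed 4 exposures (3 libraries per group), so day and number of exposures cannot be told apart. Whether each of the 28 libraries is a separate mouse is not in the labels, and p-values here rest on a spread between libraries that may in part be technical. Each library held 5.14 to 9.72 M estimated counts (M, mega). The club genes are well covered: the lowest count of any of them in any library was 438, for Scgb3a1, and Scgb1a1 never had fewer than 130381.

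Club cells line the bronchioles, secrete small proteins of the secretoglobin family onto the airway surface, and act as progenitors of the airway epithelium. Their smooth endoplasmic reticulum is rich in P450 enzymes that oxidize inhaled chemicals, and their P450 content makes them a well-known target of toxicants that must be activated by metabolism. Reductases, dehydrogenases and flavin monooxygenases of the same cells handle carbonyls, aldehydes and nitrogen or sulfur compounds. In a whole-lung homogenate these genes are read against the RNA of every other cell, so fewer cells of a type and less RNA per cell cannot be told apart. They are not all restricted to club cells: Cyp4b1 and Fmo2 are also known from other lung cells.

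Stretches of 3 promoters are shown because their genes changed in different ways after a single ozone exposure: Cyp2f2 fell, while Cyp2b10 and Fmo2 rose. Each is the 250 bases before the annotated start in RefSeq (GRCm38.p6), written 5′ to 3′ on the strand of the gene, at chr7:27119705-27119954 (plus strand) for Cyp2f2, chr7:25897408-25897657 (plus strand) for Cyp2b10 and chr1:162898759-162899008 (minus strand) for the first of the annotated Fmo2 windows. Capitals mark matches to the motifs named after the sequences.
Cyp2f2: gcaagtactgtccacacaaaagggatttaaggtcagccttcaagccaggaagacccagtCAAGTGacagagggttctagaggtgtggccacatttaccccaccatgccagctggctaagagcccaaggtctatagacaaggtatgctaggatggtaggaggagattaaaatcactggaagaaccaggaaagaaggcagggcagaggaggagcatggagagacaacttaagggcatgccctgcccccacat
Cyp2b10: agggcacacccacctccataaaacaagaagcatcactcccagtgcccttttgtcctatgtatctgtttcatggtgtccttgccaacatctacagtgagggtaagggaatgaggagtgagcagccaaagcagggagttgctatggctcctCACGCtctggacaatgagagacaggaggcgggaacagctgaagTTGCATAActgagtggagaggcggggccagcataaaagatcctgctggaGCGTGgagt
Fmo2: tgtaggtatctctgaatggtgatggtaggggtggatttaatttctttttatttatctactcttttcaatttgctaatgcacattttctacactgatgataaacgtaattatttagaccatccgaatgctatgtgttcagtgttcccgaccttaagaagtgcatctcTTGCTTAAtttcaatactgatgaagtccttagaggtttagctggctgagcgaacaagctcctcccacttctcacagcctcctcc
A set of 5 motifs was searched on both strands in windows of 300 bases, 250 before and 50 after the start: TGACNNNGC (antioxidant response element core), GCGTG (xenobiotic response element core), CAAGTG (an NKX2-1 form), TGTTTA (a forkhead form) and TTGCNNAA (a C/EBP form). Cyp2f2 held CAAGTG at position -191 from the start. Cyp2b10 held GCGTG at -9, its reverse complement at -101, and a match to TTGCNNAA at -58, whereas the first Fmo2 window held a match to TTGCNNAA at -84. The second Fmo2 window held the C/EBP form at -69 and the forkhead form at -27. Scgb3a1 and the second Aldh1a1 window also held the NKX2-1 form, and the first Aldh1a1 window the C/EBP form. Among the 10 windows found for 8 of the 10 genes, Cyp4b1, Cyp2s1 and Cbr2 held no match, and Scgb1a1 and Scgb3a2 had no window here. The same letters occur in 12.4%, 32.4%, 13.6%, 13.4% and 10.8% of 32851 windows of the same length, in the order in which the motifs are listed, so a match is a description of the letters and not of a binding site.

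In the GENCODE M21 annotation of GRCm38 all 10 are protein-coding, and values were summed over each whole gene. Scgb1a1 (ENSMUSG00000024653) lies at chr19:9083636-9087958, Scgb3a1 (ENSMUSG00000064057) at chr11:49663610-49665118 and Scgb3a2 (ENSMUSG00000038791) at chr18:43764289-43767399. On chromosome 7 lie Cyp2s1 (ENSMUSG00000040703, chr7:25802475-25816913), Cyp2b10 (ENSMUSG00000030483, chr7:25897620-25926624) and Cyp2f2 (ENSMUSG00000052974, chr7:27119909-27133660). Cyp4b1 (ENSMUSG00000028713) lies at chr4:115624725-115647723, and Cbr2 (ENSMUSG00000025150) at chr11:120729489-120732114. Aldh1a1 (ENSMUSG00000053279) lies at chr19:20492715-20643465 and Fmo2 (ENSMUSG00000040170) at chr1:162874317-162898726.

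Among air-breathing mice the genes spanned a wide range of levels, compared here as CPM (the count scaled to a library total of 1 M) per kilobase of exon, on day 1 with n = 4. Scgb1a1, the main secreted protein of club cells, led with 63320 ± 8920 (SD), and alone took 2.64 to 3.59% of all counts in these libraries. Cbr2 followed with 2904 ± 469, then Cyp2f2 with 1715 ± 213, Scgb3a2 with 1053 ± 288, Scgb3a1 with 463 ± 259 and Aldh1a1 with 283 ± 25.7. Cyp4b1 stood at 239 ± 24.7, Fmo2 at 153 ± 22.5, Cyp2b10 at 144 ± 19.0 and Cyp2s1 at 31.4 ± 3.86. Neighbours in this order whose spreads overlap are Scgb3a1 and Aldh1a1, Aldh1a1 and Cyp4b1, and Fmo2 and Cyp2b10. All values below are CPM scaled by TMM factors, not per length, and a gene is said to rise or fall only where edgeR's quasi-likelihood test gave a Benjamini-Hochberg adjusted p under 0.05 over all 14887 genes.

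**Figure D1:**
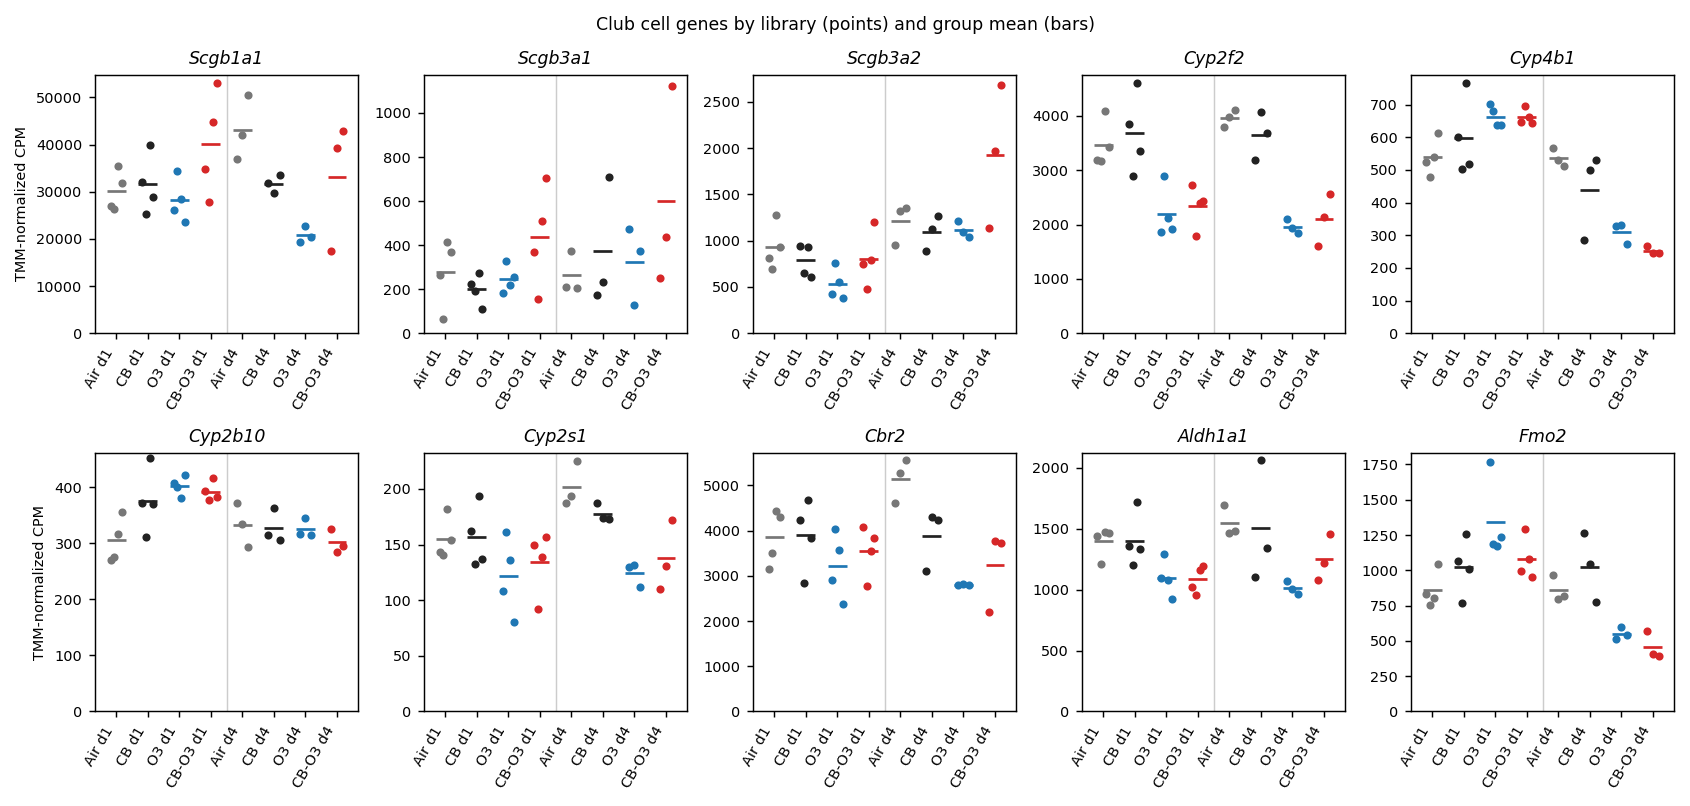
TMM-normalized CPM (vertical axis, linear from 0) of each of the 10 club cell genes in all 28 libraries (points), by exposure and day, with the group mean as a bar and a grey line between day 1 and day 4. Cyp2f2 lies below Air in all O3 and CB-O3 libraries of both days, Cyp4b1 and Fmo2 lie below Air on day 4 only, and Scgb1a1 and Scgb3a2 spread widely in CB-O3 on day 4.

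Cyp2f2 fell after 1 ozone exposure, in a comparison in which 4.63% of all genes tested fell. After 4 exposures 7 of the 10 club genes fell, Scgb1a1 and Cyp2f2 most, where 9.07% of all genes did. Cyp2b10 and Fmo2 rose on day 1, as did 6.81% of all genes. After carbon black alone none of the 10 passed the test at either day, and none passed it between co-exposure and ozone alone.

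**Figure D2:**
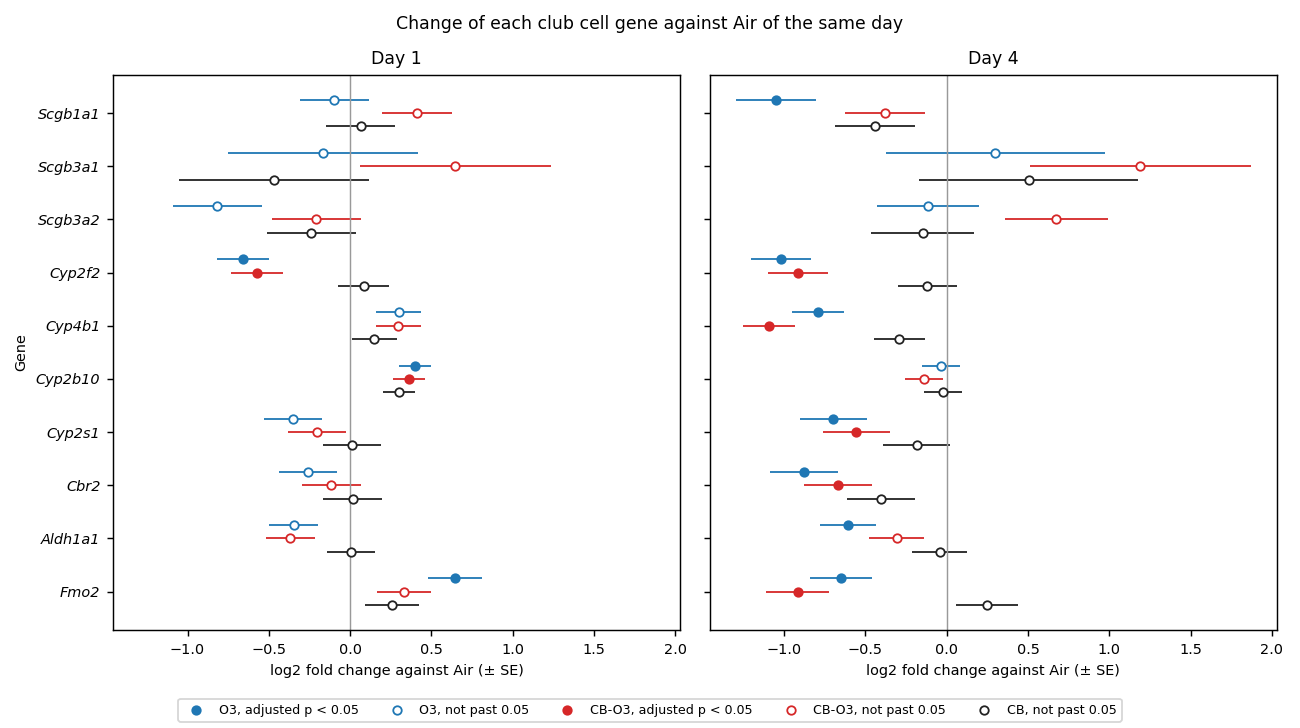
The log2 fold change against Air of the same day (horizontal axis, with SE as bars) of each club cell gene after O3, CB-O3 or CB, on day 1 (left) and day 4 (right). Filled points have an adjusted p under 0.05: 3 for O3 and 2 for CB-O3 on day 1, 7 for O3 and 5 for CB-O3 on day 4, and none for CB.

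Cyp2f2 codes for the P450 of mouse club cells that is best known for activating naphthalene, and it was the gene that fell in every comparison of an ozone-containing exposure with Air. Air libraries of day 1 held 3198, 3174, 4098 and 3420 CPM. O3 libraries held 1868, 2891, 2128 and 1924, and CB-O3 libraries 2725, 1782, 2395 and 2441. No library of either exposure reached the lowest Air library, and Cyp2f2 was 1.58-fold lower after O3 (log2 change -0.66 ± 0.16 SE, adjusted p = 0.00748) and 1.49-fold lower after CB-O3 (-0.57 ± 0.16, adjusted p = 0.0121). On day 4 the Air libraries held 3798, 3979 and 4119 CPM, the O3 libraries 2106, 1930 and 1844, and the CB-O3 libraries 1607, 2146 and 2561. The groups again did not overlap: Cyp2f2 was 2.02-fold lower after O3 (-1.02 ± 0.18, adjusted p = 0.000243) and 1.88-fold lower after CB-O3 (-0.91 ± 0.18, adjusted p = 0.000395). The change after O3 did not pass the test of a difference between days (-0.36 ± 0.24, adjusted p = 0.498).

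Against the whole table, 4.63% of the genes tested fell after O3 on day 1 and 6.81% rose. Cyp2f2 was the only club gene among those that fell, and Cyp2b10 and Fmo2 were among those that rose. The median log2 change of the 10 was -0.21, beside -0.01 for all genes tested. For CB-O3 on day 1, 9.09% of genes fell, Cyp2f2 among them, and 10.1% rose, Cyp2b10 among them. There the medians were 0.09 for the club genes and 0.00 for all genes.

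Cyp2b10, a P450 known in liver as a target of the constitutive androstane receptor, was higher by a modest amount on day 1. Air libraries held 271, 276, 317 and 356 CPM. O3 libraries held 406, 399, 381 and 421, and CB-O3 libraries 394, 376, 417 and 382. Every ozone-exposed library of day 1 lay above every Air library, and the rise was 1.32-fold after O3 (0.40 ± 0.10, adjusted p = 0.0105) and 1.29-fold after CB-O3 (0.36 ± 0.10, adjusted p = 0.0129). The second call was lost without Air replicate 1 (adjusted p = 0.0572) or replicate 2 (adjusted p = 0.0537), the lowest Air libraries. After CB alone the libraries spanned 310 to 452 CPM, with 0.30 ± 0.10 and an adjusted p of 0.192. This value passed (0.38, adjusted p = 0.0393) when CB replicate 2 was left out. On day 4 all groups lay close together, at 333 ± 38.6 CPM in Air, 325 ± 17.1 after O3 and 302 ± 20.8 after CB-O3 (SD, n = 3), with log2 changes of -0.04 ± 0.12 and -0.14 ± 0.12 (adjusted p = 0.869 and 0.372).

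Fmo2, the main flavin monooxygenase of lung, changed in opposite directions on the days. On day 1 the Air libraries held 831, 756, 804 and 1042 CPM and the O3 libraries 1764, 1188, 1171 and 1240. The groups did not overlap, and the rise was 1.56-fold (0.64 ± 0.17, adjusted p = 0.0111). Its first O3 library stood far above the others, and without it the change was 0.48 with an adjusted p of 0.0621. CB-O3 libraries held 994, 1294, 1081 and 952 CPM, which overlapped Air (0.33 ± 0.17, adjusted p = 0.165). On day 4 Air held 969, 797 and 821 CPM, O3 held 511, 596 and 542, and CB-O3 held 570, 404 and 396. All 6 ozone-exposed libraries then lay below Air, 1.57-fold after O3 (-0.65 ± 0.19, adjusted p = 0.0163) and 1.89-fold after CB-O3 (-0.92 ± 0.19, adjusted p = 0.00059). The call for O3 was lost without Air replicate 1 (adjusted p = 0.0692) or O3 replicate 1 (adjusted p = 0.069).

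Cyp4b1, a P450 that oxidizes fatty acids and activates some furans, also had a day 4 fall that was not there on day 1. On day 1 Air held 525, 479, 540 and 613 CPM, O3 held 702, 680, 636 and 636, and CB-O3 held 648, 696, 662 and 642. These libraries lay above all Air libraries, but the changes of 0.30 ± 0.14 in each comparison did not pass (adjusted p = 0.171 for O3 and 0.137 for CB-O3). Fitted on the compared groups alone they did, with adjusted p = 0.0345 and 0.0328. On day 4 Air held 568, 530 and 513 CPM, O3 held 327, 331 and 272, and CB-O3 held 266, 246 and 244. No library overlapped Air, and Cyp4b1 was 1.73-fold lower after O3 (-0.79 ± 0.16, adjusted p = 0.000769) and 2.13-fold lower after CB-O3 (-1.09 ± 0.16, adjusted p = 1e-05). The 2 exposures shared Air as their control and are given side by side.

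On day 4, 9.07% of all genes tested fell after O3, and 7 of the 10 club genes were among them. A further 11.7% of genes rose, with no club gene among them. For CB-O3, 16.3% of genes fell, with 5 of the 10 club genes among them, and 17.7% rose, with none. The medians of the club genes were -0.67 after O3 and -0.47 after CB-O3, beside -0.01 and 0.00 for all genes tested. Muscle markers moved with the O3 falls of day 4: 4 of 8 skeletal and cardiac genes were lower (median -2.04), and their summed level was 138 to 189 CPM after O3 and 397 to 732 in Air. After CB-O3 it ran from 165 to 1116 CPM and none of the 8 passed. The part of muscle in these values was not tested.

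Scgb1a1, which codes for the club cell secretory protein, did not pass the test on day 1. O3 libraries then spanned 23552 to 34383 CPM and Air libraries 26405 to 35399 (-0.10 ± 0.21, adjusted p = 0.826). CB-O3 libraries spanned 27716 to 53073 (0.41 ± 0.21, adjusted p = 0.186). On day 4 Air held 36933, 41927 and 50470 CPM and O3 held 19392, 22730 and 20335, a 2.07-fold fall (-1.05 ± 0.25, adjusted p = 0.00326) with no overlap. CB-O3 held 17399, 39211 and 42866, so that its first library was the lowest of all 28 while the other two lay within the Air range (-0.38 ± 0.25, adjusted p = 0.247). Air itself was higher on day 4 than on day 1, at 43110 ± 6846 (SD, n = 3) against 30140 ± 4246 (n = 4), a difference of 0.52 ± 0.23 that did not pass (adjusted p = 0.502). Set against the Air libraries of day 1, the O3 libraries of day 4 are still lower, each below the lowest of 26405.

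Scgb3a2, a secretoglobin found early in airway secretory cells, followed another course. On day 1 Air held 810, 690, 1277 and 932 CPM and O3 held 420, 755, 551 and 378. The groups overlapped in a single O3 library, and the change of -0.82 ± 0.27 had an adjusted p of 0.056. It passed with DESeq2 (adjusted p = 0.0339), limma-voom (0.0379) and a stricter count filter (0.0492), and without either Air replicate 2 (0.0462) or O3 replicate 2 (0.0237). On day 4 O3 held 1213, 1093 and 1042 CPM, within the Air range of 955 to 1356 (-0.11 ± 0.32, adjusted p = 0.841). CB-O3 held 1131, 1971 and 2680 (0.67 ± 0.32, adjusted p = 0.104). Without the first of these libraries the change was 0.95 with an adjusted p of 0.0231.

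Scgb3a1, a secretoglobin of larger airways, was the most variable of the 10. Its Air libraries of day 1 ran from 65.0 to 412 CPM, and its CB-O3 libraries of day 4 from 249 to 1122. Its changes on day 1 were -0.17 ± 0.59 after O3 and 0.65 ± 0.59 after CB-O3 (adjusted p = 0.895 and 0.486), and on day 4 they were 0.30 ± 0.68 and 1.19 ± 0.68 (adjusted p = 0.801 and 0.187). Its SEs were larger than the changes themselves after O3 on either day.

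Cbr2, a carbonyl reductase abundant in mouse lung, was lower on day 4. Air held 4620, 5265 and 5555 CPM, O3 held 2806, 2812 and 2796, and CB-O3 held 2211, 3764 and 3726. Every exposed library lay below Air, with a 1.84-fold fall after O3 (-0.88 ± 0.21, adjusted p = 0.00347) and a 1.59-fold fall after CB-O3 (-0.67 ± 0.21, adjusted p = 0.0143). The second call was lost without CB-O3 replicate 1 (-0.45, adjusted p = 0.0964) and in a fit of the compared groups alone (adjusted p = 0.063). On day 1 the values were -0.26 ± 0.18 after O3 and -0.12 ± 0.18 after CB-O3 (adjusted p = 0.392 and 0.712). Air itself lay higher on day 4 than on day 1, by 0.42 ± 0.19, which did not pass (adjusted p = 0.502). Set against Air of day 1 (3149 to 4438 CPM), the O3 libraries of day 4 are still lower, while CB-O3 replicates 2 and 3 lie within it.

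Aldh1a1, which oxidizes retinal and other aldehydes, held 1697, 1461 and 1484 CPM in Air on day 4 and 1071, 1007 and 967 after O3. The groups did not overlap, and the fall was 1.52-fold (-0.61 ± 0.17, adjusted p = 0.0119). It was lost without Air replicate 1 (adjusted p = 0.0515). CB-O3 held 1078, 1218 and 1457 CPM, with -0.31 ± 0.17 and an adjusted p of 0.169. On day 1 the changes were -0.35 ± 0.15 after O3 and -0.37 ± 0.15 after CB-O3 (adjusted p = 0.133 and 0.0826), and both passed in fits of the compared groups alone (0.0379 and 0.0229), the second with DESeq2 also (0.0486).

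Cyp2s1, a P450 of epithelia, was the lowest of the 10 in level. On day 4 Air held 187, 194 and 225 CPM, O3 held 130, 132 and 112, and CB-O3 held 110, 131 and 172. Neither exposed group overlapped Air, with a 1.62-fold fall after O3 (-0.70 ± 0.21, adjusted p = 0.0171) and a 1.47-fold fall after CB-O3 (-0.55 ± 0.21, adjusted p = 0.039). The O3 call was lost without Air replicate 3 (adjusted p = 0.0752) or O3 replicate 3 (adjusted p = 0.0725). The CB-O3 call was lost without any of the 3 Air libraries or without CB-O3 replicate 1 or 2, where adjusted p ran up to 0.168, and with no count filter (0.0585). On day 1 the values were -0.35 ± 0.18 after O3 and -0.21 ± 0.18 after CB-O3 (adjusted p = 0.223 and 0.462). Air itself lay higher on day 4 than on day 1, by 0.38 ± 0.19, which did not pass (adjusted p = 0.503). Set against Air of day 1 (140 to 182 CPM), the O3 libraries of day 4 are still lower, while CB-O3 replicate 3 lies within it.

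Carbon black alone changed 1.66% of all genes tested on day 1 and 0.208% on day 4, and no club gene was among them. At an unadjusted p of 0.05, 1515 and 2266 genes passed in edgeR, with 1 club gene and none. The day 1 median of the 10 was 0.04, beside 0.00 for all genes, and on day 4 it was -0.13 beside 0.01. Among the club genes, Scgb1a1 on day 4 held 31853, 29766 and 33589 CPM, below all 3 Air libraries of that day (-0.44 ± 0.25, adjusted p = 0.397). Cbr2 was likewise at 3098, 4312 and 4240 CPM (-0.41 ± 0.21, adjusted p = 0.352). All 8 neutrophil markers examined were higher after CB on day 1, when their summed level ran from 128 to 4379 CPM between libraries, beside 40.7 to 239 in Air. The part of these cells in the CB values was not tested.

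Whether carbon black altered the ozone effect was asked by comparing CB-O3 with O3 directly. No gene in the table passed on either day (0% called). At an unadjusted p of 0.05, 2337 genes passed on day 1 and 2991 on day 4, with 2 club genes each time. DESeq2 called 19 genes on day 1 and 472 on day 4. The secretoglobins lay higher after CB-O3 than after O3: Scgb1a1 by 0.51 ± 0.21 on day 1 and 0.67 ± 0.25 on day 4 (adjusted p = 0.264 and 0.143), and Scgb3a2 by 0.61 ± 0.27 and 0.79 ± 0.32 (adjusted p = 0.293 and 0.175). Cyp4b1 and Fmo2 on day 4 lay lower, by -0.30 ± 0.16 and -0.27 ± 0.19 (adjusted p = 0.294 and 0.439), while Cyp2f2 differed by 0.10 ± 0.18 (adjusted p = 0.781).

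The day 4 comparison turned on a single library. CB-O3 replicate 1 held 17399 CPM of Scgb1a1, where its fellows held 39211 and 42866. Without this library both Scgb1a1 (0.99, adjusted p = 0.00375) and Scgb3a2 (1.07, adjusted p = 0.0241) were higher after CB-O3 than after O3. Over the 6 fits that each left out 1 library, 0 to 2769 genes were called (14887 were tested in the main fit). Whether these 2 calls exceed the share over all genes in their fit was not tested. The 2 calls are thus not read as particular to the club genes. The summed level of 14 ciliated cell markers in CB-O3 on day 4 was 1498 CPM in replicate 1, 1781 in replicate 2 and 2446 in replicate 3. It was 1223 to 1411 CPM in Air and 1241 to 1381 after O3. Against Air, 6 of the 14 rose after CB-O3 (17.7% over all genes). Goblet cell markers summed to 43.64 to 99.03 CPM in CB-O3 on day 4 and 19.98 to 30.27 in Air. After O3 they ran from 21.56 to 103.7 CPM, a range that holds that of CB-O3. The part of these airway cells in the secretoglobin values was not tested.

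A test of non-additivity asked whether the CB-O3 change departs from the sum of the CB and O3 changes on the log2 scale. It called 1.46% of genes on day 1 and 1.37% on day 4, and no club gene. The largest club gene value on day 4 was that of Scgb1a1, at 1.11 ± 0.35 with an adjusted p of 0.0757. DESeq2 put it past the threshold (adjusted p = 0.0263), and so did edgeR without CB-O3 replicate 1 (1.42, adjusted p = 0.00207). Without that library Cbr2 passed too (0.82, adjusted p = 0.0369, against 0.61 ± 0.29 and 0.209 with it). The 12 fits of day 4 that each left out 1 library called 0 to 2979 genes (14887 were tested in the main fit). Whether the 2 club gene calls exceed the share over all genes in their fit was not tested, so they are not read as particular to these genes. Scgb3a2 stood at 0.94 ± 0.45 (adjusted p = 0.208) and Fmo2 at -0.52 ± 0.27 (adjusted p = 0.248). On day 1 Fmo2 stood at -0.57 ± 0.23 and Scgb3a2 at 0.85 ± 0.39 (adjusted p = 0.182 and 0.231).

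The difference between the days was tested as the change against Air on day 4 minus that on day 1. For O3, 1.88% of genes had a lower change on day 4, among them Cyp4b1 (-1.09 ± 0.21, adjusted p = 0.00284) and Fmo2 (-1.29 ± 0.25, adjusted p = 0.00316). For CB-O3, 4.78% of genes had a lower change, among them Cyp4b1 (-1.39 ± 0.21, adjusted p = 0.000139), Fmo2 (-1.25 ± 0.25, adjusted p = 0.00209) and Cyp2b10 (-0.50 ± 0.15, adjusted p = 0.0366). The Cyp2b10 call was lost in 8 of the 14 fits that left out a library, with adjusted p up to 0.11 (without Air replicate 1 of day 4), with no count filter (0.0643) and in the compared groups alone (0.0537). Scgb1a1 had -0.95 ± 0.33 for O3 (adjusted p = 0.103), which passed with DESeq2 (0.0461) and in a fit of the compared groups alone (0.00928). Between the Air groups of the days no gene passed (0% called by edgeR, DESeq2 or limma-voom, with 1473 at an unadjusted p of 0.05, 2 of them club genes), and the median club gene difference was 0.17.

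Endothelial markers moved with the day 4 falls of Cyp4b1 and Fmo2. Their summed level over 6 genes was 2316 to 3100 CPM in Air, 1696 to 1746 after O3 and 896 to 1598 after CB-O3. Of these markers 4 of 6 were lower after O3 and 6 of 6 after CB-O3 (9.07% and 16.3% over all genes). They were already lower on day 1, when Cyp4b1 and Fmo2 were not lower. On that day 4 of 6 were lower after O3 and 5 of 6 after CB-O3 (4.63% and 9.09% over all genes). The part of these cells in the falls was not tested. Alveolar type 2 markers summed to 33260 to 38480 CPM in Air on day 4, 31110 to 38210 after O3 and 29680 to 36680 after CB-O3. Basal cell markers summed to 381 to 508 CPM in Air on day 4, 693 to 752 after O3 and 575 to 705 after CB-O3, and on day 1 to 411 to 513, 531 to 602 and 609 to 656. Nearly all of this was Icam1, an adhesion molecule that many lung cells make: the other 5 genes, Krt5 and Trp63 among them, summed to at most 18.1 CPM in any library. Goblet, neuroendocrine and alveolar type 1 lists had at most 3 genes called in either direction of any comparison with Air, but these lists are short. Of 10 alveolar type 1 markers, 2 rose and 2 fell after O3 on day 4 (11.7% and 9.07% over all genes). After CB-O3 on day 4, 2 rose and 3 fell (17.7% and 16.3%). Of 6 goblet markers tested, 2 rose after O3 on day 4 and 1 after CB-O3.

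Relative to Scgb1a1, the other club genes moved unequally. This ratio was chosen after its values were seen and is a description. Cyp2f2 CPM came to 10.8 to 12.0% of that of Scgb1a1 in Air on day 1, 7.13 to 8.41% after O3 and 4.60 to 7.84% after CB-O3, with no overlap. After 4 exposures O3 libraries lay at 8.49 to 10.9%, across the Air range of 8.16 to 10.3%. CB-O3 libraries lay at 9.23, 5.47 and 5.97%, so that only replicate 1, the library low in Scgb1a1, was within the Air range. For Cbr2 the ratio after O3 overlapped Air on both days. On day 1 it was 10.1 to 12.5% beside 11.7 to 13.6% in Air. On day 4 it was 12.4 to 14.5% beside 11 to 12.6%. After CB-O3 the Cbr2 ratio was 7.25 to 11.7% on day 1 and 8.69 to 12.7% on day 4. For Scgb3a2 the ratio was 2.61 to 3.61% in Air on day 1 and 1.60 to 2.20% after O3, and on day 4 it was 2.58 to 3.14% in Air, 4.81 to 6.26% after O3 and 5.03 to 6.50% after CB-O3. The Scgb3a2 ratio was thus below Air on day 1 and above it on day 4 in all ozone-exposed libraries, including the CB-O3 library with little Scgb1a1.

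**Figure D3:**
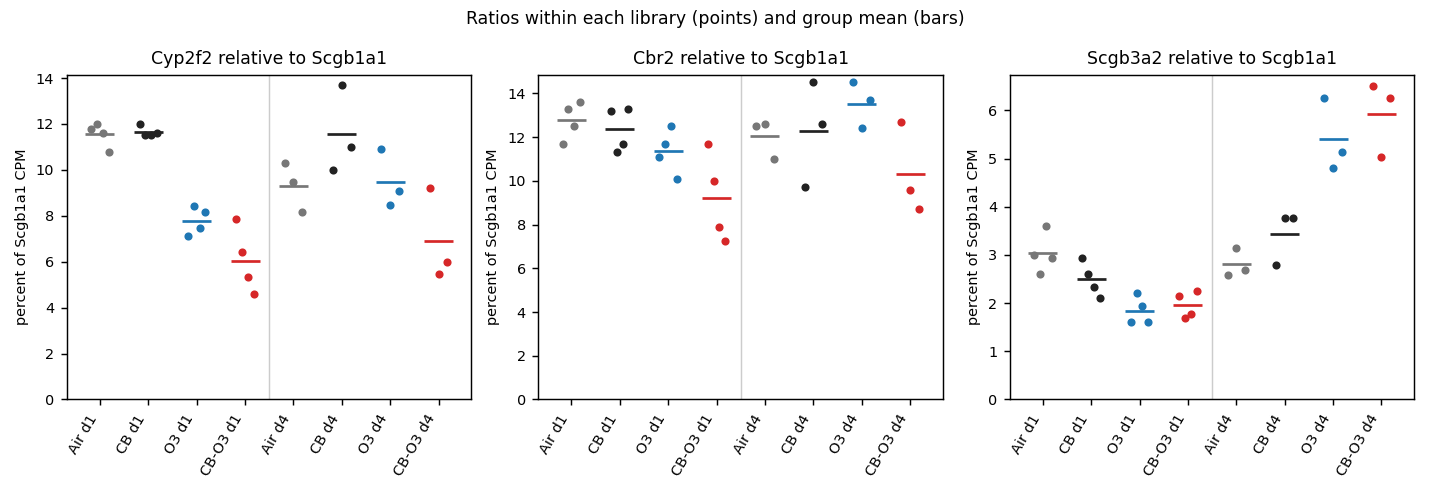
CPM of Cyp2f2, Cbr2 and Scgb3a2 as percent of Scgb1a1 CPM in the same library (vertical axis, linear from 0), with points for libraries and bars for group means. On day 1 Cyp2f2 ratios after O3 (7.13 to 8.41%) lie below Air (10.8 to 12.0%), and on day 4 Scgb3a2 ratios after O3 (4.81 to 6.26%) lie above Air (2.58 to 3.14%).

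Other genes known from club cells, a list of 24, were split in direction. After O3 on day 1, 5 rose and 1 fell (6.81% and 4.63% over all genes), and on day 4, 1 rose and 6 fell (11.7% and 9.07% over all genes), with medians of -0.04 and -0.27. After CB-O3 on day 1, 5 rose and 1 fell (10.1% and 9.09% over all genes), with a median of 0.13. On day 4 the 3 that rose and 4 that fell were close to the shares over all genes (17.7% and 16.3%), with a median of 0.00. Pon1, a paraoxonase that hydrolyses lactones and organophosphates, went the way of Cyp2f2: it fell after O3 by 0.92 ± 0.25 on the log2 scale on day 1 and by 1.70 ± 0.29 on day 4 (adjusted p = 0.0171 and 0.000195), from 126 ± 7.56 CPM in Air to 38.8 ± 5.28 on day 4. Gsta3, a glutathione S-transferase, rose on day 1 (0.68 ± 0.13, adjusted p = 0.000754) and fell on day 4 (-0.50 ± 0.15, adjusted p = 0.0162) after O3. Hp, which codes for haptoglobin, rose after CB-O3 on day 4 (0.80 ± 0.20, adjusted p = 0.00246).

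Other P450-system genes, of which 19 could be tested, had 3 higher and 3 lower after O3 on day 1 (6.81% and 4.63% over all genes) and 2 higher and 3 lower on day 4 (11.7% and 9.07%). Cyp1a1, the classical target of the aryl hydrocarbon receptor, fell after O3 on day 1 (-2.20 ± 0.63, adjusted p = 0.0271), from 27.3 ± 9.47 to 5.99 ± 2.15 CPM (n = 4). Cyp2d22 fell after O3 on day 4 (-1.25 ± 0.18, adjusted p = 1.51e-05), and Cyp51, an enzyme of cholesterol synthesis, rose on both days (0.40 ± 0.10 and 0.50 ± 0.12, adjusted p = 0.0129 and 0.00342). After CB-O3 there were 2 higher and 5 lower on day 1 (10.1% and 9.09% over all genes), and on day 4 the 2 higher and 4 lower were not far from the shares over all genes (17.7% and 16.3%).

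Phase I enzymes outside the P450 family, 29 tested, had 3 higher and 2 lower after O3 on day 1 (6.81% and 4.63% over all genes) and 2 higher and 8 lower on day 4 (11.7% and 9.07%). Ephx1, the microsomal epoxide hydrolase that acts on products of P450 oxidation, fell at both days after O3 (-0.58 ± 0.10 and -0.65 ± 0.12, adjusted p = 0.00037 and 0.000189). Fmo1, a relative of Fmo2, fell on day 4 from 373 ± 26.2 to 158 ± 8.25 CPM (-1.24 ± 0.18, adjusted p = 2.21e-05). Akr1b8, an aldo-keto reductase that clears reactive aldehydes, rose at both days after O3 (1.23 ± 0.17 and 1.18 ± 0.20, adjusted p = 2.91e-05 and 9.61e-05). After CB-O3 there were 4 higher and 4 lower on day 1, near the shares over all genes (10.1% and 9.09%), and 4 higher and 8 lower on day 4 (17.7% and 16.3% over all genes).

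**Figure D4:**
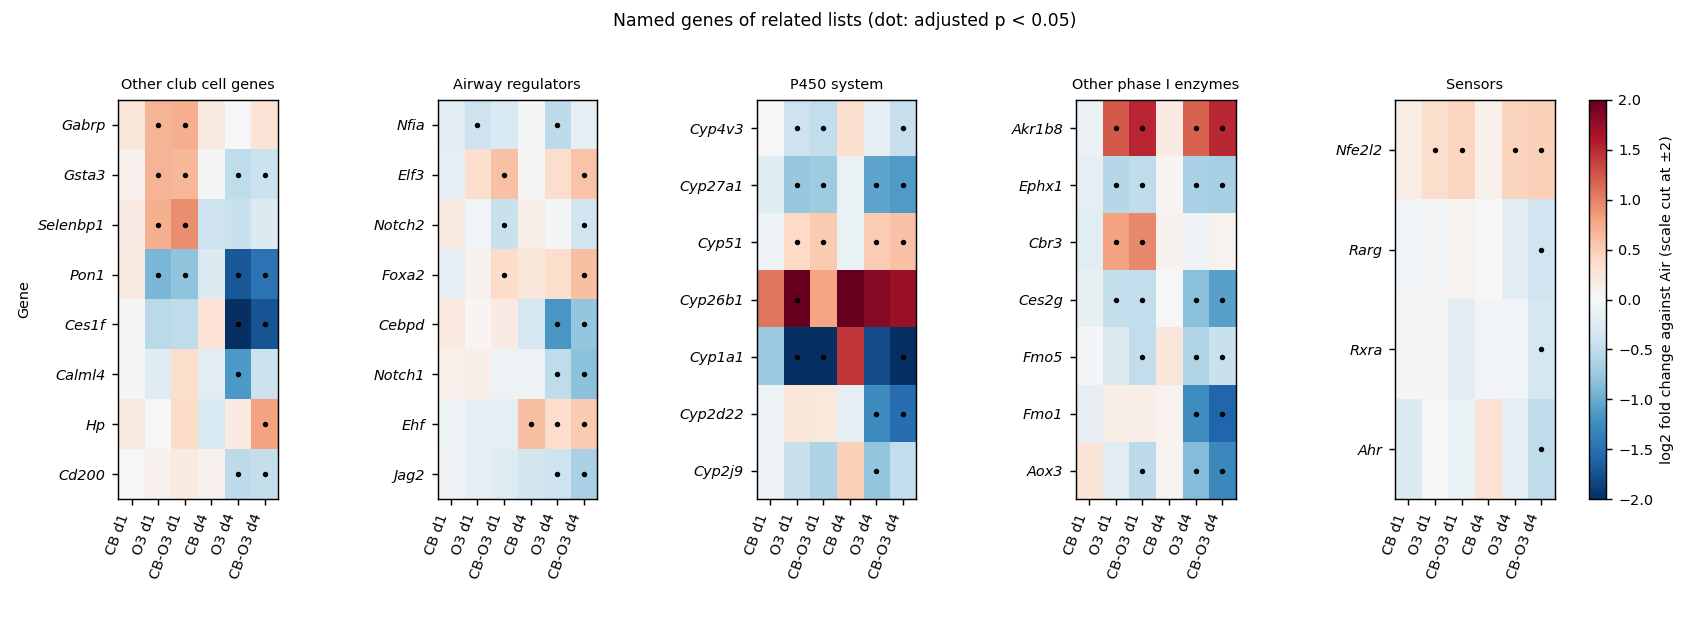
The log2 fold change against Air (colour, scale limited to ±2) of named genes from 5 lists in each exposure and day (columns), with a dot where the adjusted p was under 0.05. Pon1, Ephx1, Ces2g and Cyp27a1 were lower and Akr1b8, Cyp51 and Nfe2l2 higher, with a dot, in all 4 comparisons of O3 or CB-O3 with Air.

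Of 20 regulators of airway epithelium, 1 rose and 4 fell after O3 on day 4 (11.7% and 9.07% over all genes), and 6 rose and 4 fell after CB-O3, where 17.7% and 16.3% of all genes did, so that the 4 that fell were near that share. Foxa2, a forkhead factor of airway epithelium, rose after CB-O3 on both days (0.36 ± 0.12 and 0.61 ± 0.14, adjusted p = 0.0409 and 0.00164). Cebpd, a C/EBP factor, fell on day 4 after O3 (-1.17 ± 0.24, adjusted p = 0.0011) and CB-O3 (-0.77 ± 0.24, adjusted p = 0.0143). Of 9 sensors of xenobiotics and retinoids tested, Nfe2l2, the NRF2 factor of the oxidant response, rose in each comparison of O3 or CB-O3 with Air, by 0.35 to 0.47. After CB-O3 on day 4, 1 of the 9 rose and 4 fell (17.7% and 16.3% over all genes). Among those that fell were Ahr, Rxra and Rarg, by 0.51, 0.36 and 0.40 on the log2 scale.

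By the rule for likeness, the 4 protein-coding genes most like each of 3 club genes over the 28 libraries were taken, from 12123 genes with a mean of at least 5 CPM. They were Calml4 (Pearson r = 0.935), Ccdc137, Sod1 and Exosc7 for Scgb1a1. For Cyp2f2 they were Pon1 (0.95), Ephx1 (0.924), Mettl7a1 and Gm281, and for Aldh1a1 they were Mettl7a1 (0.832), Cyp2f2, Pon1 and Cyp1a1. The libraries share exposures and depth, so these values describe likeness and carry no p. After group means were removed, Cyp2f2 and Cbr2 (r = 0.884) and Scgb1a1 and Scgb3a2 (r = 0.871) were most alike among the 10, so libraries of a group that held more of either held more of its partner.

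Reads of some of these genes could be shared with near-identical sequences. Of the 31-base words in their transcripts, 19.4% of those of Cyp2b10, 15% of Cbr2, 11.7% of Cyp4b1 and 10.9% of Cyp2f2 also occur in another gene. For Cyp2b10, Cyp4b1 and Cbr2 the gene sharing most (Cyp2b13, Cyp4b1-ps2 and Gm11771) had at most 0.448 CPM in any library. For Cyp2f2 the gene sharing most was Gm15883, which has no level here, so this could not be checked. Aldh1a1 shares 5.7%, mostly with Aldh1a7, which had 147 to 255 CPM. Salmon, which the authors used, divides such reads by estimate.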

How the data were processed

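The values are deposited estimated counts of each gene in 28 mouse lung libraries, made by the authors with Salmon 1.1.0 from 51-base paired-end reads, per the labels. The submitters' processing notes also name mm10, R 3.6.3 and DESeq2, with no role. The step from transcripts to genes is not stated. The counts, 17.7% of which were not whole, were rounded here. Symbols and exon lengths came from GENCODE M21 (GRCm38, the assembly mm10 names). Totals had a median of 7.19 M (M, mega), and libraries of a group correlated at 0.948 to 0.987 (36 pairs). Counting error is small at these depths.

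All libraries, grouped by exposure and day, entered 1 edgeR 4.0.16 fit (R 4.3.3) with a mean per group, TMM scaling (0.902 to 1.05), filterByExpr and the robust quasi-likelihood F test. The 13 comparisons were each adjusted by Benjamini-Hochberg over 14887 genes. SE is the log2 change divided by the root of F. Alternatives were DESeq2 1.42.0, limma-voom (limma 3.58.1), other scaling and filters, the replicate number as a block, the compared groups alone, and each library left out. The steps were tested on simulated data. All 10 club genes are named. From related lists, up to 4 called genes with the smallest p in O3 or CB-O3 against Air of each day were eligible to be named, of which 1 is not reported here. Members and lists were chosen with earlier results of these data known. Likeness used log2(CPM + 0.5).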

Additional observations from a re-analysis of the deposited data

Results flagged for a closer look

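In 2 of the 40 sets of 4 libraries examined (10 genes in 4 groups of day 1), a library stood apart from its group by a gap larger than Dixon's critical value, and chance flags about 1 in 20. Aldh1a1 in Air replicate 2 of day 1 was 1208 CPM, where the other libraries held 1439 to 1474. Fmo2 in O3 replicate 1 of day 1 was 1764 CPM, where the others held 1171 to 1240.

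The change against Air differed between day 1 and day 4, by edgeR's test of that difference, for Cyp4b1 (-1.09) and Fmo2 (-1.29) after O3, and for Cyp4b1 (-1.39), Cyp2b10 (-0.50) and Fmo2 (-1.25) after CB-O3. Values are the log2 change on day 4 minus that on day 1.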

How the results depend on the processing

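Over median-of-ratios scaling, no filter, a filter of 5 CPM in 3 libraries, DESeq2, limma-voom, the replicate block and the compared groups alone, the number of club genes called stayed within 1.5 times in every comparison except 3. DESeq2 called 1 in the day 4 non-additivity test (0 in the main analysis), and the compared groups alone gave 5 for O3 (3) and 4 for CB-O3 (2) on day 1. The cause was not tested. Leaving out each library gave 1 to 2 for CB-O3 on day 1, 0 to 1 for CB on day 1, and 0 to 2 for both CB-O3 against O3 and non-additivity on day 4. Directions that reversed belonged to values that did not pass: Scgb3a1 after O3 on day 1 (0.10 with limma-voom, 0.03 with the replicate block, -0.495 to 0.086 with a library left out), Scgb3a1 on day 4 after O3 (-0.07 to 0.68) and CB (-0.35 to 0.85), Cyp2b10 after O3 on day 4 (-0.12 to 0.05), and Cyp2f2 in CB-O3 against O3 on day 4 (-0.063 to 0.273). Single-gene calls gained or lost stand beside their results.

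Counts over all genes moved by more than 1.5 times in some comparisons. With DESeq2 they were 175 for CB on day 4 (31), 548 and 1000 for non-additivity on day 1 (218) and day 4 (204). With the compared groups alone they were 7 for CB on either day (247 and 31), 3175 for CB-O3 on day 4 (5073), 898 and 0 for non-additivity, and 1125 for the O3 difference between days (631). Without a filter, non-additivity on day 4 gave 64, and limma-voom gave 18 for CB on day 4. CB-O3 against O3 on day 4 (0) gave 28 with the stricter filter, 96 with limma-voom and 0 to 2769 with a library left out. With a library left out, CB on day 1 gave 75 to 357 and on day 4 8 to 653, O3 on day 1 904 to 1519, CB-O3 on day 1 1771 to 2967, and non-additivity 56 to 471 and 0 to 2979. The O3 difference between days (631) gave 365 to 624 with a library left out.

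Same-numbered libraries of different groups did not, at the median, deviate together (r 0.016 over 90 pairs, beside -0.008 over 252 others). Single pairs ran from -0.272 to 0.487, beside -0.449 to 0.5 for the others. The medians thus show no pairing by number but cannot exclude it for some libraries. The replicate block changed no club gene call. It gave 177 genes for CB-O3 against O3 and 839 for non-additivity on day 4, where the main fit gave 0 and 204. The lowest count of any club gene was 438.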
